A study of Mus musculus with 6 samples.

Results

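Autophagy is the process by which a cell wraps part of its own cytoplasm in a double membrane, the autophagosome, and delivers it to the lysosome for breakdown. The genes described here are its core machinery: 36 genes chosen by symbol, of the 53465 Ensembl genes in the count table. They comprise the 5 genes of the ULK initiation complex, 6 genes for ATG9, ATG2 and the WIPI proteins, 7 genes of the class III phosphatidylinositol 3-kinase (PI3K) complexes and their regulators, 10 genes of the ATG12 and ATG8 conjugation systems, the 5 ATG8 genes, and *Tfeb* with the lysosomal membrane genes *Lamp1* and *Lamp2*. All 36 were found in the table.

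RNA was sequenced from M II oocytes, which are mature eggs arrested at the second meiotic metaphase. The oocytes came from naturally aged female Kunming (KM) mice of 9 to 10 months. They were matured in vitro for 16 h, either in M16 medium without quercetin (control) or in M16 with 10 μM quercetin, a plant flavonol. Each group had 3 pools, each of 15 oocytes from 3 mice, and full-length cDNA was made with a Smart-seq HT kit. All oocytes had been stripped of cumulus cells after hormonal stimulation of the mice. Quercetin was added from a DMSO stock, and the sources used here do not say whether the control medium held DMSO. Young oocytes were not sequenced in these pools, so the comparison is of quercetin within aged oocytes only. Because RNA was measured per pool, a smaller share of oocytes with a transcript and less of it in each oocyte cannot be told apart.

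Autophagy starts when the ULK1 kinase complex is switched on and activates the PI3K complex around PIK3C3 and Beclin 1. The lipid it makes recruits WIPI proteins, while ATG9 vesicles and the ATG2 lipid carriers supply membrane. A pair of ubiquitin-like systems then attach ATG12 to ATG5 and couple the ATG8 proteins (LC3 and GABARAP) to the lipid phosphatidylethanolamine. Much of this pathway is controlled after transcription, and the values below are of mRNA alone.

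The ATG8 coding ends are shown first because the conjugation steps act on them. ATG4 proteases cut each ATG8 precursor just after a glycine, and that glycine is the residue joined to the lipid. The last 60 coding bases, stop codon included, follow with the codon of this glycine in capitals. They were read from GENCODE M21 transcripts on GRCm38, on the plus strand in each case, and lie wholly in exon 4 of 4.
*Map1lc3a* (chr2:155277578-155277637): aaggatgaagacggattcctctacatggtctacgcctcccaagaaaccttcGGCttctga
*Map1lc3b* (chr8:121596711-121596770): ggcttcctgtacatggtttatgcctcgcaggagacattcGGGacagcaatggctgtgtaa
*Gabarap* (chr11:69994465-69994524): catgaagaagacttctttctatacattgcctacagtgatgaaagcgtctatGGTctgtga
*Gabarapl1* (chr6:129541108-129541167): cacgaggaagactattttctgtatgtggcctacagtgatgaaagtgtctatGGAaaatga
*Gabarapl2* (chr8:111952346-111952405): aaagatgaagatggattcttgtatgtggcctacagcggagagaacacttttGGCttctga
The glycine is codon 120 in *Map1lc3a* and *Map1lc3b* and codon 116 in the other ATG8 genes. Only 1 codon follows it before the stop in *Map1lc3a*, *Gabarap*, *Gabarapl1* and *Gabarapl2*, whereas 5 follow it in *Map1lc3b*. Over the whole coding sequence, pairs of these genes were 50.6% to 74.9% identical. The closest pairs were *Gabarap* with *Gabarapl1* (74.9%) and *Map1lc3a* with *Map1lc3b* (74.7%). No pair shared a 31-base word of coding sequence, so their coding reads can be told apart from each other at that length. Over all their transcripts, 8.64% of the 31-base words of *Map1lc3b*, 15.3% of *Gabarapl2* and 25.2% of *Gabarapl1* occur in other genes.

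Total counts ran from 7880467 to 9938743 per pool, with 18204 to 19374 genes detected. The 10 oocyte markers, among them *Gdf9* and *Zp3*, were counted in every pool and together made up 16243 to 20141 CPM (counts scaled to a common library size by TMM) in control and 17788 to 19457 in quercetin pools. Of 10 cumulus and granulosa markers, *Foxl2* and *Amhr2* were at 0 in every pool, and the list summed to 70.2 to 86 CPM in control and 91.4 to 96.7 in quercetin pools, so the groups did not overlap. *Cyp19a1* (aromatase) made up most of that sum, at 584, 486 and 612 counts in control and 598, 692 and 621 in quercetin pools. *Kitl*, the ligand of KIT, had 71, 64 and 77 counts in control and 95, 112 and 106 in quercetin pools. *Ptgs2* went the other way in mean CPM, with 31, 11 and 13 counts in control and 11, 4 and 18 in quercetin pools. *Fshr* did so too, with 18, 8 and 9 against 6, 7 and 13. Mean CPM was higher with quercetin for *Has2*, at 14 to 49 counts a pool with overlapping groups. It was also higher for *Inha*, *Inhba* and *Tnfaip6*, which had only 0 to 9 counts a pool. Of 8 stromal, blood and immune markers, 3 were at 0 in every pool (*Col1a1*, *Hba-a1* and *Hbb-bs*), and the list summed to 34 to 37.3 CPM in control and 36 to 41.9 in quercetin pools. *Pecam1* made up most of that sum, at 299, 249 and 308 counts in control and 262, 302 and 319 in quercetin pools. *Cd68* had 20, 29 and 24 counts in control and 20, 28 and 25 in quercetin pools. The part of such cells in the differences below was not tested. Nothing says whether the pools share mice, so p-values measure the spread between these pools.

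No difference in an autophagy mRNA between quercetin and control oocytes held up against the spread between pools once all genes were taken into account. Of the 36 genes, 30 had enough counts to be tested, and none of them passed an adjusted p of 0.05 with a fold change over 2 in edgeR's quasi-likelihood test. Their adjusted p-values ran from 0.988 to 0.999. The same rule called 0 of all 11842 tested genes (0%), while 477 had an unadjusted p under 0.05. DESeq2 called 12 genes and edgeR's likelihood ratio test 16, none of them an autophagy gene. For *Atg13*, *Atg9a*, *Atg2a*, *Wipi2* and *Atg7*, DESeq2 gave no adjusted p. At an unadjusted p under 0.05, none of the autophagy genes was higher, against 2.14% of all tested genes, and 1 was lower (*Ulk1*), against 1.89%. The 3 quercetin pools all lay below the 3 control pools for 3 genes (*Ulk1*, *Atg2a* and *Atg3*), where 5.15% of all tested genes did so. The summed cumulus and granulosa markers, mostly *Cyp19a1*, lay apart as well, in the other direction, and their part in these values was not tested. No autophagy gene had all quercetin pools above, where 5.43% of all tested genes did so. Taken in either direction, 10% of the tested autophagy genes had groups apart, beside 10.6% of all tested genes. A log2 fold change of quercetin over control was positive for 10 genes and negative for 20, with a median of -0.082 beside -0.026 over all tested genes. Added together, the 36 genes made up 1338 to 1388 CPM in control and 1366 to 1410 in quercetin pools, which overlap.

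The intervals say how large a difference these pools could have hidden. For 23 of the 30 tested genes (76.7%), the 95% interval of the fold change lay wholly within a 2-fold change in either direction, as it did for 60.7% of all tested genes. The 7 others were *Atg13*, *Atg9a*, *Atg2a*, *Atg2b*, *Wipi2*, *Atg4a* and *Map1lc3a*, whose intervals allow a larger difference in at least one direction. A fitted difference of over 1.5-fold either way was found for 3 autophagy genes (*Atg2a*, *Wipi2* and *Map1lc3a*), and for 9.28% of all tested genes.

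**Figure D1:**
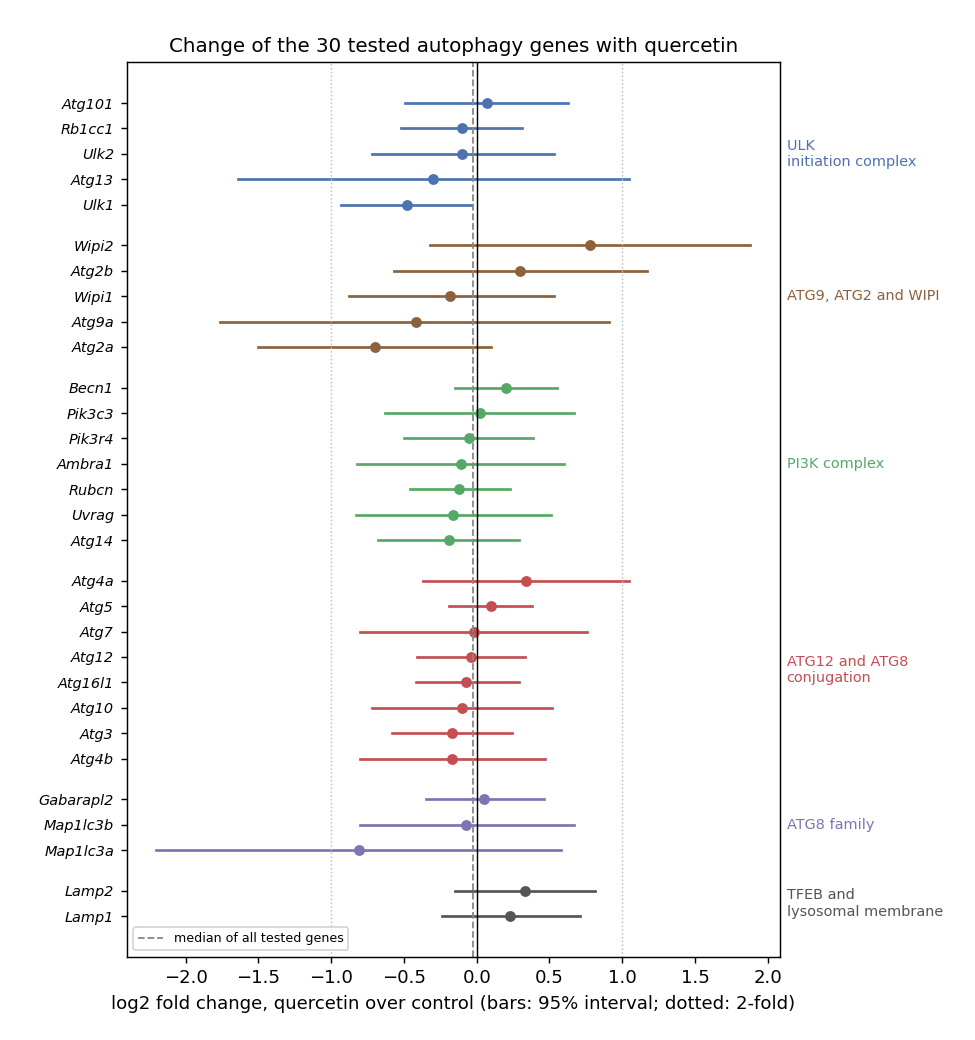
Log2 fold change of quercetin over control (x axis) for the 30 tested autophagy genes, by role group. Points are edgeR estimates and bars their 95% intervals. Dotted lines mark a 2-fold change and the dashed line the median of all tested genes (-0.026). Only the bar of *Ulk1* (-0.93 to -0.03) leaves out 0, and the bars of *Map1lc3a*, *Wipi2*, *Atg9a* and *Atg13* are the widest.

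Levels of different genes were compared as CPM per kilobase of exon, with the exons of all annotated transcripts merged. In control pools, *Atg5* was the most abundant autophagy mRNA at 153 ± 9.07 CPM per kb (SD, n = 3), above 96.9% of all tested genes. All its control pools lay above those of the next gene, *Gabarapl2*, at 24.3 ± 4.41. *Becn1* (20.8 ± 1.66), *Lamp1* (16.2 ± 3.59), *Rubcn* (15.9 ± 1.46), *Atg12* (15.4 ± 1.74) and *Atg101* (13.5 ± 2.44) followed, and each overlapped the next in the order. Further down, the control pools were all above those of the next gene for *Atg4a*, *Rb1cc1*, *Wipi1*, *Atg7* and *Atg13*. The genes at the bottom were *Wdr45* (0.114 ± 0.0495), *Wipi2* (0.0879 ± 0.0432), *Gabarapl1*, *Atg4c* and *Atg4d*, with *Tfeb* at 0. The machinery was thus measured at levels that ranged from near the detection limit to among the upper transcripts of the oocyte. That limit was 3 counts, or 0.302 to 0.381 CPM by library size alone, without TMM scaling and not per kb.

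The order depends on the length used. With the length of the principal transcript of each gene in place of the merged exons, *Atg16l1* moved from rank 8 to rank 2 and *Map1lc3b* from rank 12 to rank 7, while *Atg5* stayed at rank 1. By CPM, which is not per length, *Atg5* alone made up 25.5% to 28% of the summed counts of the 36 genes in every pool. Together with *Becn1*, *Rubcn*, *Atg12* and *Atg16l1* it made up 60.3% to 65.3%.

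**Figure D2:**
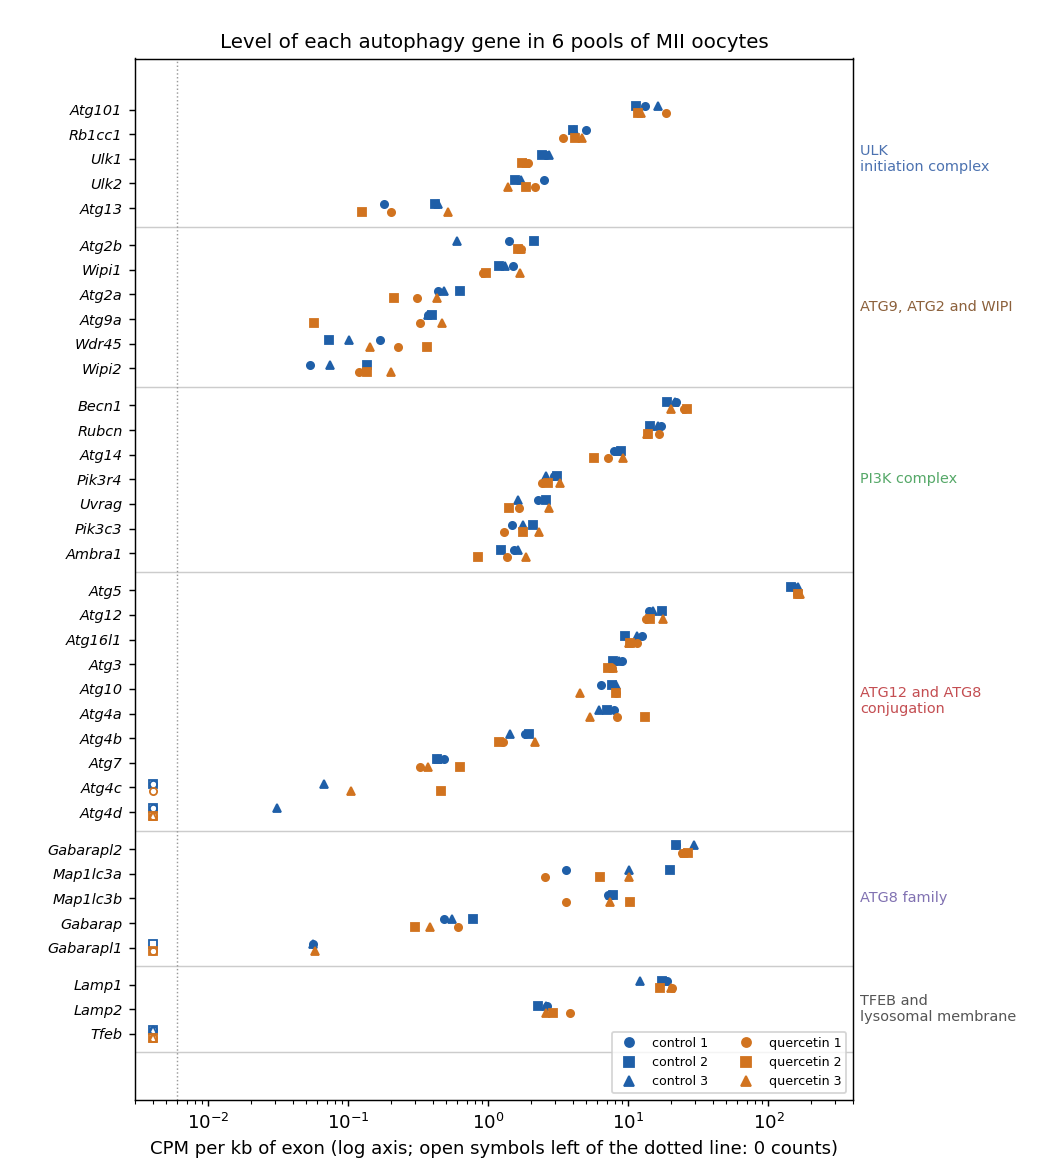
CPM per kb of exon (log axis) of each of the 36 autophagy genes in each pool, by role group. Blue symbols are control and orange symbols quercetin pools, the symbol gives the pool number, and open symbols left of the dotted line are pools with 0 counts. *Atg5* lies apart on the right in all pools, while *Tfeb* is at 0 in all.

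The ULK complex starts autophagy. Of its 5 genes, all tested, 1 had a positive and 4 had a negative log2 fold change (median -0.104). *Ulk1* (ENSMUSG00000029512, chromosome 5 from 110784488 to 110810097), the kinase itself, had 150, 131 and 156 counts in control and 100, 103 and 103 in quercetin pools. The control pools stood at 16.8, 15.7 and 17.5 CPM and the quercetin pools at 12.5, 11.3 and 12.1, so every quercetin pool was lower than every control pool. Its log2 fold change was -0.48 (SE 0.20), with a 95% interval of -0.93 to -0.03, an unadjusted p of 0.0376 and an adjusted p of 0.988 by edgeR's quasi-likelihood test. The exact two-sided permutation test gave p = 0.1, the smallest that 3 pools against 3 can give. The difference thus did not pass correction over all genes, and the unadjusted p lay between 0.0208 and 0.109 over the other settings.

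The second kinase gene, *Ulk2*, had 133, 77 and 91 counts in control and 103, 101 and 70 in quercetin pools, and its groups overlapped (log2 fold change -0.10, SE 0.28). *Atg101*, whose product steadies ATG13, had the only positive value of the complex, with 187, 151 and 230 counts in control and 238, 172 and 168 in quercetin pools (log2 fold change 0.07, SE 0.25, adjusted p = 0.995 by edgeR). *Rb1cc1* encodes FIP200, the scaffold of the complex, and had 658, 492 and 534 counts in control and 401, 553 and 584 in quercetin pools (-0.10, SE 0.18). *Atg13*, the adaptor that ties the kinase to FIP200, was the weakest of the complex with 7, 15 and 17 counts in control and 7, 5 and 19 in quercetin pools, and its interval ran from -1.64 to 1.05 on the log2 scale. None of these other members of the complex had groups that did not overlap.

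ATG9, ATG2 and the WIPI proteins bring lipid and PI3P binding to the growing membrane. Their mRNAs were among the scarcest of the machinery, and only 1 of the 5 tested genes had an interval within 2-fold (*Wipi1*, -0.88 to 0.53). *Atg2a* (ENSMUSG00000024773, chromosome 19 from 6241668 to 6262335), a lipid transfer protein, had 30, 40 and 33 counts in control and 19, 15 and 28 in quercetin pools. Every quercetin pool was below every control pool in CPM (log2 fold change -0.70, SE 0.35, unadjusted p = 0.0794 and adjusted p = 0.988 by edgeR). Its paralog *Atg2b* was the more abundant, at 1.37 ± 0.755 against 0.513 ± 0.0973 CPM per kb in control pools, though *Atg2b* in control pool 3 fell within the range of *Atg2a*. *Atg2b* had 169, 236 and 71 counts in control and 183, 200 and 197 in quercetin pools. The quercetin pools were close together and the control pools spread around them (log2 fold change 0.30, SE 0.38).

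*Wipi2* (ENSMUSG00000029578, chromosome 5 from 142627698 to 142670588) binds PI3P and recruits ATG16L1. It had the highest fold change of the machinery, but on 5, 12 and 7 counts in control and 10, 13 and 18 in quercetin pools. The groups overlapped, and the log2 fold change was 0.78 (SE 0.49, 95% interval -0.32 to 1.88, adjusted p = 0.988 by edgeR). *Wipi1* had 59, 44 and 52 counts in control and 32, 39 and 63 in quercetin pools. *Wdr45*, the WIPI4 gene, failed the count filter with 5, 2 and 3 counts in control and 6, 11 and 4 in quercetin pools. *Atg9a*, the transmembrane scramblase, had 19 counts in each control pool and 15, 3 and 23 in quercetin pools, so its negative value (-0.42, SE 0.59) came with 1 low pool. Of the exon length of *Atg9a*, 31.8% overlaps *Gm29253* on the same strand, and of that of *Wdr45*, 24.7% overlaps *Gm45208*, so their counts depend on how shared reads were assigned.

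The PI3K complex makes the lipid PI3P. All 7 of its genes were tested and all 7 intervals lay within 2-fold. *Becn1* (ENSMUSG00000035086, chromosome 11 from 101285952 to 101302286), which encodes Beclin 1, the core subunit, had 1387, 1113 and 1351 counts in control and 1419, 1696 and 1221 in quercetin pools. It had the highest fold change of the group, and its groups overlapped (log2 fold change 0.20, SE 0.15, 95% interval -0.15 to 0.55, adjusted p = 0.988 by edgeR). Exons of *Cntd1* on the opposite strand cover 43.9% of its exon length. *Cntd1* itself had 419, 367 and 377 counts in control and 472, 511 and 433 in quercetin pools, and whether the counting used strand is not given in the sources used here, so reads from either gene may stand in both values.

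*Atg14*, which directs the complex to autophagosomes, had the lowest fold change of the group, with 305, 320 and 324 counts in control and 249, 224 and 337 in quercetin pools (-0.19, SE 0.22, adjusted p = 0.988 by edgeR). Quercetin pool 3 stood above the control pools and the other quercetin pools below them. *Uvrag*, the partner that takes the place of ATG14 on endosomes, was likewise highest in quercetin pool 3, with 182, 194 and 132 counts in control and 120, 115 and 210 in quercetin pools (-0.16, SE 0.30). *Rubcn* encodes Rubicon, an inhibitor of the complex, and was among its most abundant members with 1138, 888 and 1089 counts in control and 993, 943 and 865 in quercetin pools (-0.12, SE 0.15). *Pik3c3*, the lipid kinase, had 59, 77 and 70 counts in control and 46, 72 and 88 in quercetin pools (0.02, SE 0.29). Its regulatory subunit gene *Pik3r4* was at -0.05 (SE 0.20) and *Ambra1*, a Beclin 1 regulator, at -0.11 (SE 0.32). The kinase was thus measured at 1.77 ± 0.294 CPM per kb and the inhibitor at 15.9 ± 1.46 in control pools.

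The conjugation systems held the gene with the firmest value. *Atg5* (ENSMUSG00000038160, chromosome 10 from 44268358 to 44364291), to which ATG12 is attached, had 3176, 2853 and 3419 counts in control and 3016, 3513 and 3364 in quercetin pools. In CPM the control pools stood at 355, 342 and 383 and the quercetin pools at 377, 384 and 395, so only the highest control pool reached into the quercetin range. Its log2 fold change was 0.10 (SE 0.13), and the 95% interval of -0.19 to 0.38 is the narrowest of the 30 genes. *Atg12* had 965, 1118 and 1025 counts in control and 824, 1001 and 1153 in quercetin pools (-0.04, SE 0.16). *Atg16l1*, which brings the ATG12-ATG5 conjugate to the membrane, had 1070, 764 and 986 counts in control and 888, 905 and 828 in quercetin pools (-0.07, SE 0.16). The 3 parts of this conjugate were thus well counted in every pool, and their groups overlapped.

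The enzymes that drive conjugation were scarcer. *Atg7*, the activating enzyme shared by both systems, had 30, 25 and 27 counts in control and 18, 40 and 22 in quercetin pools (-0.02, SE 0.35). Per kb its control level of 0.449 ± 0.0287 lay below that of the enzymes acting after it, *Atg3* at 8.39 ± 0.639 and *Atg10* at 7.38 ± 0.892. *Atg3* (ENSMUSG00000022663, chromosome 16 from 45158785 to 45188538), which transfers ATG8 to the lipid, had 253, 203 and 239 counts in control and 191, 205 and 207 in quercetin pools. All its quercetin pools lay below the control pools in CPM, though the lowest control pool and the highest quercetin pool both round to 24.3 CPM (log2 fold change -0.17, SE 0.18, adjusted p = 0.988 by edgeR). *Atg10*, which transfers ATG12, was at -0.10 (SE 0.28), with 98, 110 and 124 counts in control and 111, 127 and 66 in quercetin pools.

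Of the ATG4 proteases, which prepare ATG8 proteins and later free them from membranes, *Atg4a* made up 70.4% to 88.9% of the family per kb and *Atg4b* 8.01% to 28.2%. With principal transcript lengths these ranges were 59.7% to 84.9% and 12.6% to 39.3%. *Atg4a* had 188, 156 and 147 counts in control and 175, 321 and 121 in quercetin pools, the highest fold change of the conjugation genes (0.34, SE 0.32, adjusted p = 0.988 by edgeR). In CPM, quercetin pools 1 and 2 (21.9 and 35.1) were above every control pool (21, 18.7 and 16.5) and quercetin pool 3 (14.2) was below them. *Atg4b* had 135, 134 and 105 counts in control and 85, 90 and 151 in quercetin pools, with *Atg3* the lowest of the group (-0.17, SE 0.28, adjusted p = 0.988 by edgeR), with quercetin pool 3 above every control pool and the other quercetin pools below. *Atg4c* had 0, 0 and 2 counts in control and 0, 14 and 3 in quercetin pools, and *Atg4d* had 2 counts in control pool 3 and 0 in the other pools. In the latter, 0 counts allow up to 3 counts, or 0.302 to 0.381 CPM without TMM scaling, and this floor covers counting error only.

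The value of *Atg4a* also depends on a near copy, which is shown because many reads may match both genes. *Atg4a-ps* is a retrogene on chromosome 3 from 103643954 to 103646068 that the annotation lists as protein coding. Its sequence matches 1184 of the 1191 coding bases of *Atg4a* (99.4%), and 60.8% of the 31-base words in *Atg4a* transcripts occur in other genes, chiefly this copy. The first 120 coding bases of *Atg4a* span exons 1 and 2, and the capital marks the only base that differs in this stretch.
*Atg4a* (chrX:140956962-140986388, plus strand, intron left out): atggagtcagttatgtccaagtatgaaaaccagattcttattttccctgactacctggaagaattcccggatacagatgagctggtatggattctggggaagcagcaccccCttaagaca
*Atg4a-ps* (chr3:103645904-103646023, minus strand): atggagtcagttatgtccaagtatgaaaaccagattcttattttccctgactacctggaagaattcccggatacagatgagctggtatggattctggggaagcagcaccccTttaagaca
*Atg4a-ps* had 36, 21 and 26 counts in control and 29, 51 and 34 in quercetin pools (log2 fold change 0.48). Quercetin pool 2 was thus the highest pool for both genes, and how reads that match both were counted is not given in the sources used here.

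The ATG8 genes were at unequal levels. Per kb, *Gabarapl2* (GATE-16) made up 43.6% to 78.2% of the family's mRNA over the 6 pools, *Map1lc3a* (LC3A) 8.2% to 39.4% and *Map1lc3b* (LC3B) 11.6% to 23.7%. *Gabarap* made up 0.68% to 1.97% and *Gabarapl1* 0% to 0.168%. With principal transcript lengths the ranges were 40.2% to 70.3% for *Gabarapl2*, 22.3% to 41% for *Map1lc3b* and 5.64% to 27.8% for *Map1lc3a*. The GABARAP branch of the family was therefore represented almost wholly by *Gabarapl2*, while both LC3 genes were present.

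*Gabarapl2* (ENSMUSG00000031950, chromosome 8 from 111940703 to 111953612) was also the most even of the 3 tested genes of the family, with 451, 425 and 610 counts in control and 451, 567 and 493 in quercetin pools. Its log2 fold change was 0.05 (SE 0.18, 95% interval -0.35 to 0.46, adjusted p = 0.995 by edgeR). Of its 31-base words, 15.3% occur in other genes. *Map1lc3b* (ENSMUSG00000031812, chromosome 8 from 121590361 to 121598760), the common marker of autophagosomes, had 484, 488 and 494 counts in control and 216, 710 and 476 in quercetin pools. The control pools were nearly equal, and quercetin pool 1 lay below and pool 2 above all of them (log2 fold change -0.07, SE 0.32, 95% interval -0.80 to 0.67, adjusted p = 0.997 by edgeR).

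*Map1lc3a* (ENSMUSG00000027602, chromosome 2 from 155276297 to 155278073) had the lowest fold change of the machinery, and the largest spread. It had 38, 195 and 106 counts in control and 24, 68 and 102 with quercetin. On the CPM scale this was 4.25, 23.4 and 11.9 against 3, 7.44 and 12. Both groups held a low and a high pool, and the pools differed 7.79-fold. The log2 fold change was -0.81 (SE 0.61, 95% interval -2.20 to 0.58, adjusted p = 0.988 by edgeR). *Gabarap* (ENSMUSG00000018567) had 8, 12 and 9 counts in control and 9, 5 and 6 in quercetin pools, and *Gabarapl1* (ENSMUSG00000030161) had 1, 0 and 1 in control and 0, 0 and 1 in quercetin pools. Neither passed the count filter, and *Gabarapl1* was below the floor of 3 counts in every pool.

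**Figure D3:**
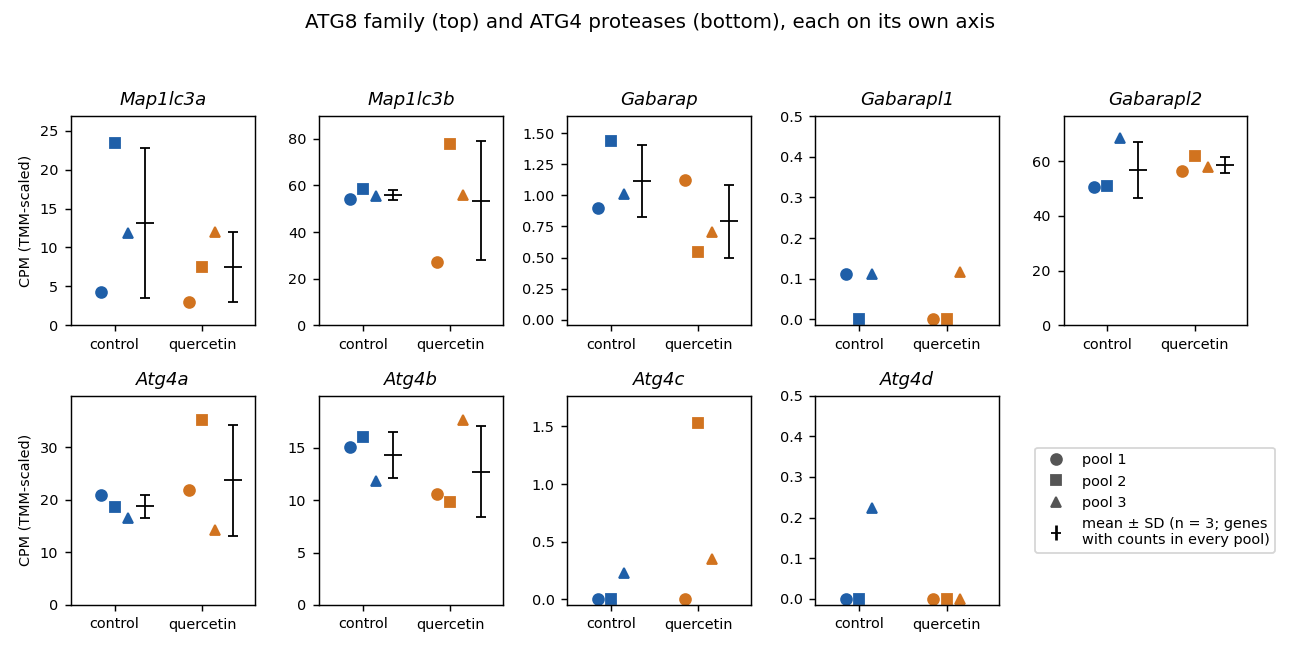
TMM-scaled CPM (y axis, a separate scale for each gene) of the 5 ATG8 genes (top) and the 4 ATG4 genes (bottom) in each control and quercetin pool. Symbols give the pool number, and black bars are the mean ± SD of 3 pools for genes with counts in every pool. *Map1lc3a* runs from 3 to 23.4 CPM over the 6 pools, while *Gabarapl2* stays between 50.5 and 68.4.

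The spread of *Map1lc3a* stood out among these genes. The SD of log2(CPM + 0.5) between pools of one group was 1.06 for *Map1lc3a*, beside a median of 0.32 for the 30 tested autophagy genes and 0.30 for all tested genes. *Atg5* had the smallest, 0.06. The zona pellucida genes *Zp1*, *Zp2* and *Zp3*, egg coat genes among the oocyte markers and named here after their values were seen, also varied from pool to pool. *Zp2* stood at 223, 1554 and 628 CPM in control and 131, 846 and 1321 in quercetin pools, an 11.9-fold range. Quercetin pool 1 was the lowest and control pool 1 the second lowest for *Map1lc3a*, *Map1lc3b* and all 3 zona genes. Next came quercetin pool 2 for *Map1lc3a*, but control pool 3 for *Map1lc3b* and the zona genes, and the highest pool also differed among them. The share of all tested genes with the same lowest pools was not counted. For *Map1lc3b*, control pool 1 (54.1 CPM) was close to control pool 3 (55.4) and quercetin pool 3 (55.8). None of the other oocyte markers had quercetin pool 1 lowest and control pool 1 second lowest. For *Bmp15* and *Nlrp5* control pool 1 was the lowest and quercetin pool 1 the next, while *Gdf9* was highest in quercetin pool 1 (7485 CPM). The part of these differences between pools in the values of *Map1lc3a* was not tested.

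**Figure D4:**
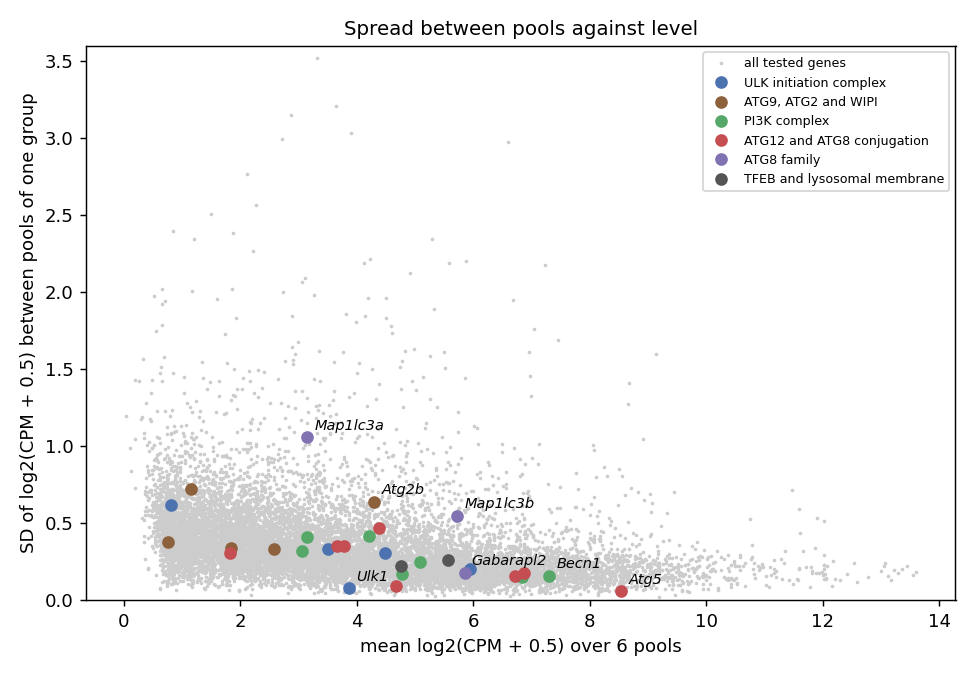
Spread between pools of one group (y axis, SD of log2(CPM + 0.5)) against mean level (x axis, mean log2(CPM + 0.5) over 6 pools). Coloured points are the 30 tested autophagy genes by role group, grey points all tested genes. *Map1lc3a* lies highest among the coloured points at 1.06 and *Atg5* lowest at 0.06.

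TFEB is a transcription factor that switches on lysosomal and autophagy genes. *Tfeb* (ENSMUSG00000023990, chromosome 17 from 47737030 to 47792419) had 0 counts in all 6 pools, which allows up to 0.302 to 0.381 CPM without TMM scaling. Its relatives *Tfe3* and *Mitf*, from the same family of transcription factors and named here after their values were seen, were detected in every pool. *Tfe3* had 86, 49 and 77 counts in control and 72, 52 and 61 in quercetin pools, and *Mitf* had 60, 58 and 31 in control and 42, 29 and 101 in quercetin pools. *Lamp1* and *Lamp2*, which coat the lysosomal membrane, both had positive values. *Lamp1* had 454, 391 and 290 counts in control and 436, 410 and 459 in quercetin pools (log2 fold change 0.23, SE 0.21, adjusted p = 0.988 by edgeR). *Lamp2* had 224, 179 and 219 counts in control and 294, 253 and 211 in quercetin pools (0.33, SE 0.21, adjusted p = 0.988 by edgeR). The groups overlapped for each gene, and neither passed the test.

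Beyond the core machinery, 46 further genes of the pathway were taken as a list: 12 for autophagosome formation, 14 for fusion with the lysosome and 20 of the lysosome itself. Of these, 35 were tested by the same edgeR fit and none was called. None reached an unadjusted p under 0.05 in either direction, where 4.03% of all tested genes did. The log2 fold change was positive for 16 and negative for 19, with a median of -0.024. The medians were -0.022 for formation, -0.075 for fusion and 0.136 for the lysosome. All quercetin pools lay above all control pools for 2 lysosomal genes, and for no tested gene of the list were they all below, where 10.6% of all tested genes had groups apart in one direction or the other. Those genes, named after their values were seen, were *Ctsd*, the protease cathepsin D (286, 225 and 283 counts in control and 306, 305 and 276 in quercetin pools), and *Psap*, the precursor of the saposins (56, 50 and 40 against 69, 72 and 57).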

How the data were processed

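Reads of 6 oocyte pools were aligned by the authors to GRCm38.91 with Hisat2 according to the methods, while the submitters' processing notes name TopHat2 2.0.6 and CASAVA 1.8. The authors deposited unnormalized counts per Ensembl gene for each pool. The counting program and its handling of strand and of reads that match several genes are not given in the sources used here. Groups and pool numbers came from the sample labels. Age, dose, pool size and culture time came from the labels and methods.

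Symbols, coordinates, exon lengths and transcript sequences came from GENCODE M21 (GRCm38), which matched 53274 of 53465 identifiers. Of 24476 genes with a count, 11842 passed filterByExpr (minimum count 10) and were fitted with TMM scaling and the quasi-likelihood test of edgeR 4.0.16 (R 4.3.3). Their p-values were adjusted together by the Benjamini-Hochberg method. A gene was called where the adjusted p was below 0.05 and the change exceeded 2-fold. Intervals are the log2 fold change ± t × SE. Shared sequence was measured as 31-base words, and coding sequences were aligned with Biopython 1.88. Alternatives were DESeq2 1.42.0, limma-voom (limma 3.58.1), edgeR's likelihood ratio test, other scalings and filters, a replicate block, and leaving out each pool. The principal transcript length was added after seeing the data. The autophagy genes and the other lists were chosen with earlier results of these data known. Given in full are genes with an unadjusted p under 0.05, the ATG8 genes, and the highest and lowest fold change of each role group. A protein table was not used here.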

Additional observations from a re-analysis of the deposited data

How the results depend on the processing

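None of the autophagy genes was called, or passed an adjusted p of 0.05, under any alternative. DESeq2 gave no adjusted p for *Atg13*, *Atg9a*, *Atg2a*, *Wipi2* and *Atg7*, so these could not be called by it. Over all tested genes, 3 were called without the count filter, 12 by DESeq2, 16 by the likelihood ratio test, and 0 to 7 with 1 pool left out. The number of autophagy genes at an unadjusted p under 0.05 went from 1 to 0 without the filter, by DESeq2, by the likelihood ratio test and with the replicate block, and ranged from 0 to 3 with 1 pool left out. The 3, found without quercetin pool 3, were *Ulk1*, *Atg2a* and *Atg4a*, and 1563 of all tested genes passed that p there. Without control pool 1 the gene was *Map1lc3a*. The count of genes whose groups did not overlap was 4 to 10 of 30 with 1 pool left out. The 10 (33.3%) came without quercetin pool 3, where 31.8% of all tested genes lay apart. With any other pool left out it was 13.3% to 16.7%, beside 16.2% to 20.5% of all tested genes. The median of the autophagy genes was -0.162 with library size only, where that of all tested genes was -0.111, and ran from -0.128 to -0.018 with 1 pool left out. The cause was not tested.

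The median level of the 36 genes in control pools was 2.31 CPM per kb of merged exons and 3.6 per kb of principal transcript, a length chosen after seeing the data. Of 237 values of single autophagy genes under alternatives that kept all pools, 232 had the sign reported. With library size only, *Atg101* was at -0.01, *Pik3c3* at -0.06 and *Gabarapl2* at -0.03. *Pik3c3* was at -0.00 by limma-voom and -0.01 with the block. Of 180 values with 1 pool left out, 27 had the other sign, and 13 genes had the same sign in every alternative. The ranges that crossed 0 with 1 pool left out were -0.25 to 0.14 for *Ulk2*, -0.21 to 0.01 for *Rb1cc1*, -1.07 to 0.06 for *Atg13*, -0.17 to 0.23 for *Atg101*, -1.01 to 0.07 for *Atg9a*, -0.05 to 0.75 for *Atg2b*, -0.21 to 0.21 for *Pik3c3*, -0.17 to 0.04 for *Pik3r4*, -0.50 to 0.03 for *Uvrag*, -0.41 to 0.14 for *Ambra1*, -0.37 to 0.16 for *Atg7*, -0.23 to 0.13 for *Atg10*, -0.16 to 0.06 for *Atg12*, -0.17 to 0.02 for *Atg16l1*, -0.05 to 0.61 for *Atg4a*, -0.43 to 0.25 for *Map1lc3b* and -0.02 to 0.22 for *Gabarapl2*.

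The sources used here do not say whether same-numbered pools of the groups share mice or a culture day. Their deviations from the group means correlated at 0.296, 0.101 and -0.0303 over genes, for pools 1, 2 and 3. The mean over pools of unlike number was -0.0612. The block was used as an alternative only. With the replicate block, *Ulk1* had an unadjusted p of 0.0529 by edgeR, 0 autophagy genes were called, and the median was -0.098. The count filter left 6 genes, at 0 to 14 counts a pool, without a test.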
